A study of Mus musculus with 4 samples.

Results

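Potassium channel genes were followed in the whole brain of newborn mice whose mothers had received titanium dioxide nanoparticles during pregnancy. The members were the genes whose RefSeq symbol is Kcn followed by letters and a number, found through the accession that the array design gives each probe. This rule found 92 of the 20651 genes named on the array, with 124 probes. By symbol they fell into 40 voltage-gated subunits (Kcna to Kcnd, Kcnf to Kcnh, Kcnq, Kcns and Kcnv), 15 inward rectifiers (Kcnj), 14 two-pore channels (Kcnk), 12 genes of the calcium-activated group (Kcnma, Kcnmb, Kcnn and the sodium- or pH-gated relatives Kcnt and Kcnu) and 11 auxiliary subunits (Kcnab, Kcne and Kcnip). Pore-forming genes of other symbols are not among them.

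Potassium channels let potassium leave a cell along its gradient, which holds the resting potential and ends each action potential. Voltage-gated channels open on depolarization, inward rectifiers and two-pore channels carry the resting conductance, and calcium-activated channels follow firing with an afterhyperpolarization. In the developing brain they also act in dividing progenitors and in glia, and inherited defects of several members cause neonatal epilepsy or ataxia.

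C57BL/6J dams were dosed into the trachea with 25 µL of a TiO2 suspension, which delivered 100 µg per mouse (TiO2-H), or with the same liquid after its particles had been spun down and filtered off (Sham). The protocol places the treatment on gestational day 10.5, whereas the sample descriptions give day 14. Brain RNA of offspring at postnatal day 1 was pooled, with each of 5 Sham or 6 TiO2-H dams giving 2 offspring to a pool, and each pool was hybridized to 1 one-color array. Sham male and Sham female pools and the TiO2-H pools labelled male and female made up 4 arrays. All 4 groups shared strain, tissue and age, and each group had a single array, without replicates within a sex. Both Sham arrays lay in 1 row of the slide and both TiO2-H arrays in another, so that exposure, litter and slide row cannot be told apart.

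On the 4 arrays 56.2% to 61.2% of the 59305 non-control spots were well above background and none was saturated. Signals are given as scaled signal, the processed intensity brought to a common 75th percentile, with the array labelled male before the one labelled female. That scaling lowered the log2 ratio of TiO2-H over Sham by 0.10 on the arrays labelled male and by 0.13 on those labelled female, and every difference below is relative to this shift. The sex-linked genes went against the labels of the TiO2-H arrays. Xist, transcribed from the inactive X, gave 18.5 in the male and 289 in the female Sham pool and 334 and 5.14 in the TiO2-H pools of these labels, and the Y-linked Eif2s3y gave 3628 in the male and 441 in the female Sham pool and 6.17 and 4168 in the TiO2-H pools of these labels, with an intermediate Eif2s3y level on the Sham female array. The pairs are therefore named by label only, and a contrast that does not use sex is given beside them.

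Promoter windows from RefSeq (GRCm38.p6, 250 bases before to 50 after the annotated start, read in the direction of the gene) were found for 67 of the 92 members, with 92 windows in all. The windows of 4 members with differing patterns are shown, with each CG dinucleotide in capitals, because the study's question concerned CpG methylation. Kcnh5 (chr12:75177283-75177582, minus strand) and Kcnd2 (chr6:21215096-21215395, plus strand) gave higher signals on both TiO2-H arrays than on both Sham arrays. Kcna2 (chr3:107101317-107101616, plus strand) gave lower ones, and Kcnip2 (chr19:45816014-45816313, minus strand) was past the fold threshold on the arrays labelled female.
Kcnh5: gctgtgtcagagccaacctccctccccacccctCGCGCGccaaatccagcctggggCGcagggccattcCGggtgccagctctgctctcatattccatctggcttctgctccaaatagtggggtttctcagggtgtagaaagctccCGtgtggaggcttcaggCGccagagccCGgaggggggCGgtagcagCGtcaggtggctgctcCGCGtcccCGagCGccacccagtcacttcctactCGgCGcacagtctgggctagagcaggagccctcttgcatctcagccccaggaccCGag
Kcnd2: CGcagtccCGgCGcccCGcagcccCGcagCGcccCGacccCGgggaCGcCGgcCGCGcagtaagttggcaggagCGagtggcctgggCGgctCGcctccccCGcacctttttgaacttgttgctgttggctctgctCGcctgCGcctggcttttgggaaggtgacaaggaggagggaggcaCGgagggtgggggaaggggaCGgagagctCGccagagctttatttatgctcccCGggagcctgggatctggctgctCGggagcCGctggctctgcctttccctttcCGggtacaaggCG
Kcna2: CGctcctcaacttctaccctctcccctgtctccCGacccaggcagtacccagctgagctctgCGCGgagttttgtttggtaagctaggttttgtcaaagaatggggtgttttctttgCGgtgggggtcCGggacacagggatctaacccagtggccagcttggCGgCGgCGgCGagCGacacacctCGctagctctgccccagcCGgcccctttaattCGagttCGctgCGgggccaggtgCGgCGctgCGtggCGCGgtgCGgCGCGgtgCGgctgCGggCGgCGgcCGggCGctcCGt
Kcnip2: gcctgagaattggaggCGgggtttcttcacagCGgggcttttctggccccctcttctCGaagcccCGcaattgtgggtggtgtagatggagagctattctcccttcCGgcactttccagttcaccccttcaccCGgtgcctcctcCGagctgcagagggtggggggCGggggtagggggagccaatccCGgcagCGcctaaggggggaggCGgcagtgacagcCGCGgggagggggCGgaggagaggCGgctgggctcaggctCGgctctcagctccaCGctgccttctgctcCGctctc

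These windows held 17, 26, 31 and 18 CG dinucleotides. Across the members' windows the median was 9 CG (quartiles 5 and 21), against 7 (quartiles 3 and 20) in all 32851 windows of the table. The voltage-gated windows had a median of 19.5 CG, the calcium-activated windows 11.5, the two-pore windows 10, the inward rectifier windows 8 and the auxiliary windows 7. These medians are over windows, so a gene with several windows weighs more, as in the 20 auxiliary windows of 9 genes. The letters GGGCGG, searched on both strands, were found in 47.8% of the members' windows and 35.7% of all windows, and in each of the 4 windows shown. The TATA sequence TATAAA, also searched on both strands, was found in 5 of the members' windows (5.43%), of which 4 were inward rectifier windows, and in 13.6% of all windows. These are descriptions of sequence, and no methylation was measured on these arrays.

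Of the 92 members, 68 were well above background on all 4 arrays (73.9%, against 70.9% of all genes) and 16 on none (17.4%, against 21.8%). The brain therefore gave a measurable signal for about the same share of potassium channel genes as of genes in general. Voltage-gated genes were detected on all arrays in 32 of 40 cases, two-pore genes in 11 of 14, inward rectifiers in 10 of 15, the calcium-activated group in 8 of 12 and auxiliary subunits in 7 of 11.

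**Figure D1:**
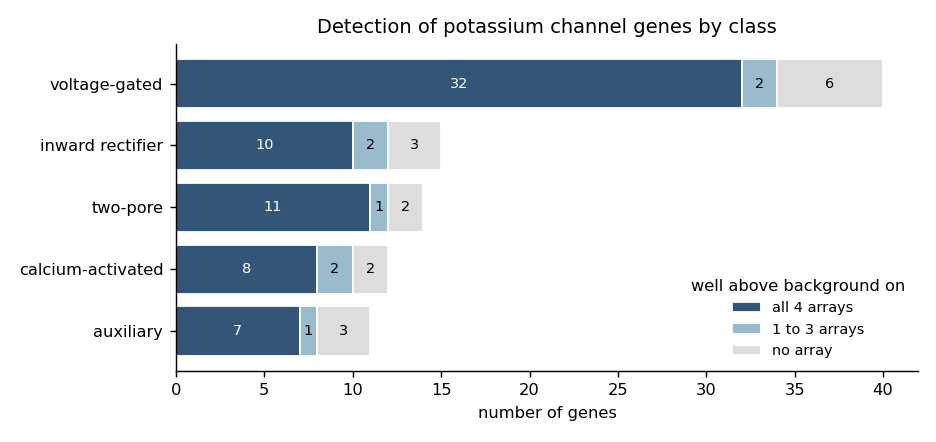
Number of potassium channel genes of each class (horizontal axis) whose probe was well above background on all 4 arrays, on 1 to 3 arrays or on no array. Voltage-gated genes are detected on all arrays in 32 of 40 cases, and 3 of 11 auxiliary genes on no array.

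All 3 Kv4 genes (Kcnd1 to Kcnd3) and all 4 Kcnip genes, which encode calcium-binding partners of Kv4, were detected on all 4 arrays. The members detected on no array included genes best known outside the brain, among them Kcnj1 of the kidney tubule, Kcne1 of the heart and inner ear, Kcnmb1 of smooth muscle and Kcnv2 of photoreceptors. Kcnab2, a Kv beta subunit of axons, Kcnn1, an SK channel, Kcnj2, a classical inward rectifier, Kcnk5, Kcnk7, Kcna10, Kcng3, Kcng4, Kcnj15, Kcne3 and Kcnh6 were also below the detection criterion with the probe that stood for them. The 8 members detected on 1 to 3 arrays were Kcnh7, Kcnq1, Kcnj6, Kcnj14, Kcnk18, Kcnmb3, Kcnn4 and Kcne4. A signal below this criterion does not show that the mRNA was absent. For the Kcnab2 probe the 4 signals were 21.1 in the male and 27.5 in the female Sham pool and 23.6 and 24.3 in the TiO2-H pools of these labels, and none of them was called well above background by the scanner software.

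The first comparison asked which channel genes differed between exposed and Sham brains at the study's thresholds of 1.5-fold and 0.67-fold. On the arrays labelled male, 3 of 74 measured members were at or above 1.5-fold (Kcnh7, Kcnq1 and Kcnt2), where 2.06% of all genes were, and 2 were at or below 0.67-fold (Kcnk18 and Kcnmb3), where 1.82% of all genes were. In the female-labelled pair, 0 of 74 were at or above 1.5-fold, where 1.59% of all genes were, and 1 was at or below 0.67-fold (Kcnip2), where 1.97% were. Together 6 members passed in either pair and none in both. With 1 array per group no test could be made, and these counts are near the background shares.

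Between arrays of the same exposure the same rule also gave members past the thresholds. For Sham female over Sham male, 1 of 71 members was at or above 1.5-fold (Kcnip2), where 1.84% of all genes were, and 3 at or below 0.67-fold (Kcnmb3, Kcnk18 and Kcnj8), where 1.75% were. For TiO2-H female over TiO2-H male, 0 of 74 were at or above 1.5-fold, where 1.3% of all genes were, and 1 was at or below 0.67-fold (Kcnh7), where 2.29% were. Of the 6 members past the thresholds between exposures, 4 were thus also past them between arrays of a single exposure.

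**Figure D2:**
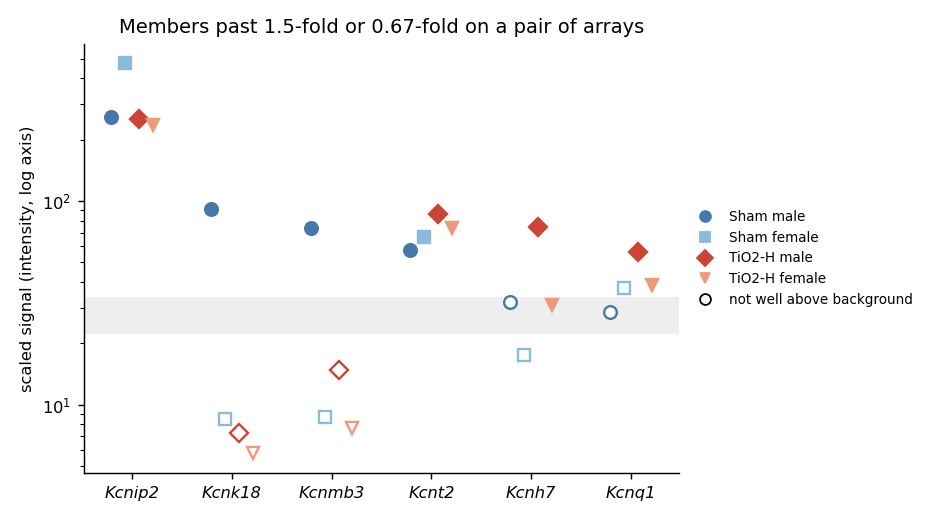
Scaled signal (log axis) on the 4 arrays of the 6 members past 1.5-fold or 0.67-fold on either pair. Open symbols are not well above background, and the grey band spans the lowest detected signal of the 4 arrays. Kcnip2, Kcnk18, Kcnmb3 and Kcnh7 each stand out on a single array.

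Kcnip2 encodes a calcium-binding subunit that sets the surface level and gating of Kv4 channels. Its signal was 259 in the male and 474 in the female Sham pool and 253 and 237 in the TiO2-H pools of these labels. The Sham female array lay 1.83-fold above the next highest array, while the other 3 arrays differed little, and the ratio was 0.50 on the arrays labelled female and 0.97 on those labelled male. The gene has a single probe here, and the scanner software's own error on its log2 ratio in the female-labelled pair was 0.209.

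Kcnk18 encodes TRESK, a calcineurin-regulated two-pore channel of sensory neurons, and Kcnmb3 a beta subunit of the BK channel. Kcnk18 gave 91.6 in the male and 8.55 in the female Sham pool and 7.29 and 5.76 in the TiO2-H pools of these labels, and Kcnmb3 gave 73.8 in the male and 8.74 in the female Sham pool and 14.8 and 7.67 in the TiO2-H pools of these labels. Each was detected on the Sham male array alone. The ratio on the arrays labelled male was at least 3.23-fold lower for Kcnk18 and at least 2.60-fold lower for Kcnmb3, with the undetected side set to the lowest detected signal. The Sham female array was as dim as the TiO2-H arrays for both.

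Kcnh7 encodes an ERG channel and Kcnq1 the Kv7 subunit that carries the slow cardiac and epithelial potassium current. Kcnh7 gave 31.8 in the male and 17.6 in the female Sham pool and 74.8 and 31.0 in the TiO2-H pools of these labels, and it was well above background on both TiO2-H arrays but on neither Sham array. Kcnq1 gave 28.4 in the male and 37.6 in the female Sham pool and 56.4 and 38.8 in the TiO2-H pools of these labels, with the same pattern of detection. That pattern depends on cutoffs that differed between arrays. The lowest detected signal was 31.4 and 33.3 on the Sham arrays and 28.4 and 22.4 on the TiO2-H arrays. Kcnh7 was detected at 31.0 on the TiO2-H female array and not at 31.8 on the Sham male array. On the arrays labelled male the ratio was 2.36-fold for Kcnh7, against the Sham male array's own undetected signal, and at least 1.80-fold for Kcnq1, against the lowest detected signal there. Kcnq1 read 1.03-fold on the arrays labelled female, and for Kcnh7 no fold is given because the TiO2-H female signal lay below the lowest detected signal of the Sham female array. For both genes the TiO2-H male array was the highest of the 4.

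Kcnt2 encodes a sodium-activated potassium channel and was the only one of the 6 measured on both arrays of the male-labelled pair and past 1.5-fold there. Its signals were 57.4 in the male and 67.0 in the female Sham pool and 86.7 and 74.1 in the TiO2-H pools of these labels, which put both TiO2-H arrays above both Sham arrays. The log2 ratio of 0.60 (1.51-fold) lay just inside the threshold of 0.58, and that of Kcnh5, 0.56, just outside it. Under quantile normalization the log2 ratio of Kcnt2 fell from 0.60 to 0.53 and under normexp background correction to 0.54, both short of the threshold. A second, dimmer probe of Kcnt2 was detected on the TiO2-H male array alone, at 84.0, with a bound of at least 2.68-fold on the arrays labelled male. Averaging both probes therefore raised the ratio of that pair instead, through this signal on a single array. The brighter probe of Kcnt2 read 1.11-fold on the arrays labelled female.

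The second comparison used both arrays of each exposure and did not depend on the sex labels. Both TiO2-H arrays lay above both Sham arrays for 27 of the 68 members detected on all arrays (39.7%, where 30.2% of all genes did) and below them for 13 (19.1%, where 26.6% did). The median difference between the mean log2 signals of the exposures was 0.03 over the members and 0.01 over all genes, and the robust SD was 0.16 and 0.12. Without scaling between arrays the counts were 42 above and 2 below, where 65.7% and 4.38% of all genes lay. The members' excess of higher over lower signals was thus larger than that of all genes after scaling, but not without it. Leaving out the scaling raises all genes together, so the unscaled counts cannot settle whether the members differ from all genes. Kcna2 and Kcnj11 were the 2 members whose TiO2-H arrays stayed below the Sham arrays without scaling.

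In both pairs together, 34 of the 68 members had a ratio above 1 in each pair (50.0%, against 36.4% of all genes), 19 had a ratio below 1 in each (27.9%, against 32.7%) and 15 had opposite directions (22.1%, against 30.8%). The robust SD of the members' log2 ratios was 0.158, 0.168, 0.134 and 0.098 for the male-labelled pair, the female-labelled pair, the pair of Sham arrays and the pair of TiO2-H arrays. Over all genes it was 0.131, 0.136, 0.087 and 0.081, so that arrays of different exposure differed more than arrays of the same exposure in both sets. The scanner software's own error on a log2 ratio had a median of 0.21 over the members, and 15 of the 68 exceeded it on the arrays labelled male (22.1%, against 14.7% of all genes) and 14 on those labelled female (20.6%, against 16.1%). Most members thus differed by less than that error in a pair of arrays. As each tissue sample was bulk RNA, fewer cells of a type and less RNA per cell cannot be told apart.

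**Figure D3:**
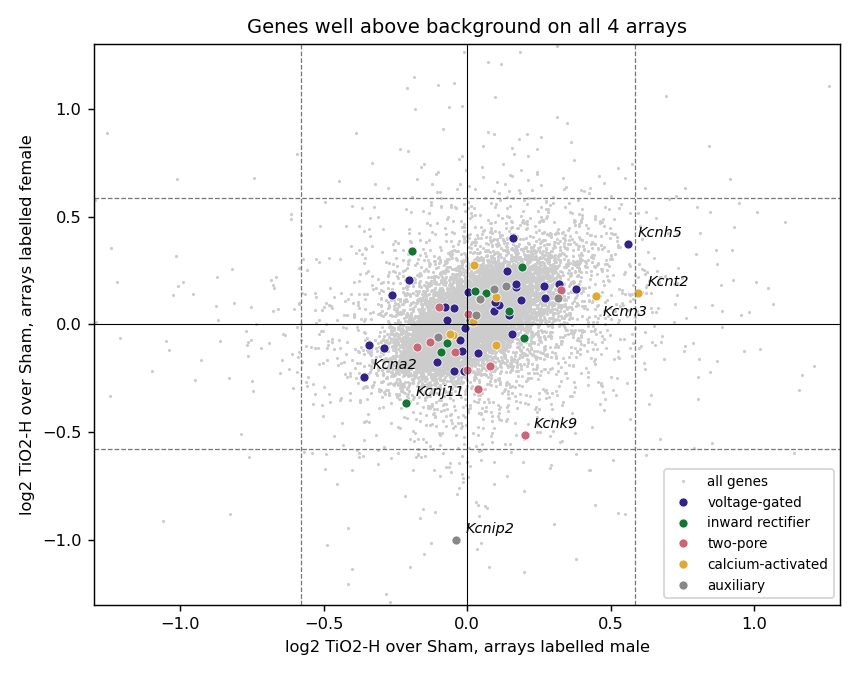
Log2 ratio of TiO2-H over Sham on the arrays labelled male (horizontal) and female (vertical) for genes detected on all 4 arrays, with all genes in grey, members coloured by class and dashed lines at 1.5-fold and 0.67-fold. Most members lie within the cloud of all genes, with Kcnip2 low on the female-labelled pair and Kcnh5 and Kcnt2 to the right. Of all genes, 73 lie beyond the axes and none of them is a member.

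A limma fit of the 2 TiO2-H arrays against the 2 Sham arrays tested 16151 genes, of which 0 had an adjusted p under 0.05 (0% of all genes and 0 of the 76 members tested), with a lowest adjusted p of 0.257. At an unadjusted p under 0.05 there were 2814 genes (17.4%) and 16 members (21.1%), of which 13 were higher and 3 lower in TiO2-H. The shares of members and of all genes were close. The fit took an undetected signal at the lowest detected signal of its array where that was higher. The 3 lower members were Kcna2, Kcnj11 and Kcne4. Kcne4 was detected on the TiO2-H female array alone, so its difference of -0.17 was set by these replaced values on the other arrays. With 2 arrays on each side, the smallest two-sided p of an exact permutation test is 0.33, so no single gene could have reached the usual threshold that way. The values below are differences of mean log2 signal, TiO2-H minus Sham, with their standard errors from this fit (n = 2 arrays per exposure), and none of them passed the adjusted test.

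**Figure D4:**
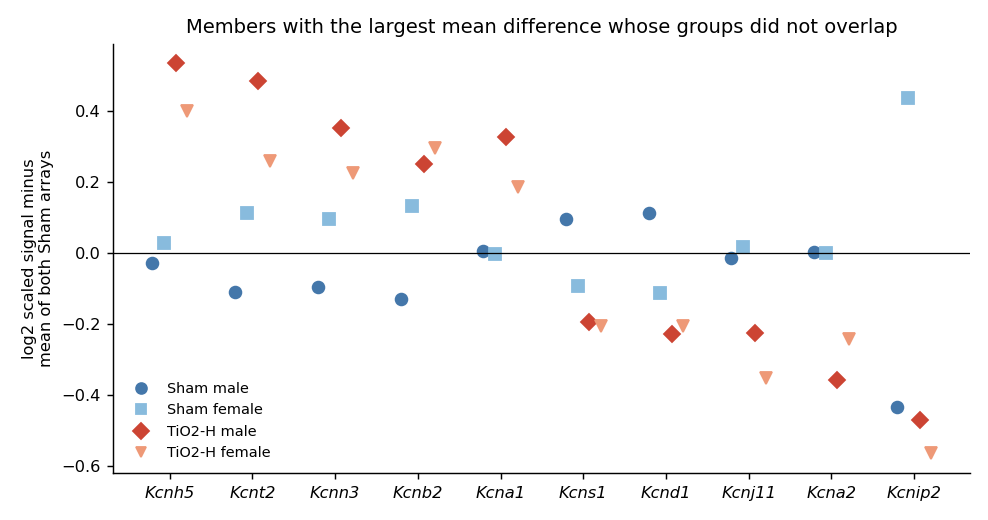
Log2 scaled signal on each array minus the mean of both Sham arrays, for the 5 members with the largest mean difference in each direction among those whose exposure groups did not overlap. Kcnh5 has the widest gap between exposures, and the Kcnip2 difference rests on a high Sham female array.

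Among the voltage-gated genes, both TiO2-H arrays lay above both Sham arrays for 13 of 32 and below them for 7. These are 40.6% and 21.9%, against 30.2% and 26.6% of all genes. The same shares of all genes stand beside the family counts below, which rest on few genes each. Among those detected on all 4 arrays, the largest difference was that of Kcnh5 (Eag2), an ether-a-go-go channel of cortical and thalamic neurons. Its signal was 166 and 173 on the Sham arrays and 245 and 223 on the TiO2-H arrays. Neither TiO2-H array came near the Sham arrays, which themselves differed little. The difference was 0.47 ± 0.064 (limma adjusted p = 0.257), and the lowest gap between the exposures was 0.37 on the log2 scale.

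The other ether-a-go-go family members detected on all 4 arrays gave smaller values. Kcnh8 (Elk1) read 179.9 and 191 on the Sham arrays and 217 and 208 on the TiO2-H arrays with its brightest probe, a difference of 0.20 ± 0.052. The other probe of Kcnh8 gave log2 ratios of 0.25 and -0.34, and its exposures overlapped, so the excess was not shared by its probes. Kcnh4 differed by 0.080. Kcnh2, which encodes the ERG1 channel of repolarization in heart and brain, read 792 and 854 on the Sham arrays and 767 and 734 on the TiO2-H arrays and differed by -0.13 ± 0.058. Thus, with the brightest probes, 3 of the 6 detected family members lay above and 1 below, and the ERG1 difference was at most 1.16-fold in either pair. Kcnh1, the closest relative of Kcnh5, read 52.7 and 39.3 on the Sham arrays and 58.9 and 51.9 on the TiO2-H arrays, and its exposures overlapped, as did those of Kcnh3.

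In the Kv1 family, whose channels sit at axons and nerve terminals, the members differed in direction. Kcna1, mutated in episodic ataxia, read 828 and 823 on the Sham arrays and 1034 and 938 on the TiO2-H arrays, a difference of 0.25 ± 0.063 (limma adjusted p = 0.257). Kcna2, its frequent partner in the same channels, read 208 and 207 on the Sham arrays and 162 and 175 on the TiO2-H arrays, a difference of -0.30 ± 0.055 (limma adjusted p = 0.257). The 2 Sham arrays were almost equal for both genes, and the TiO2-H arrays lay on opposite sides of them. Kcna6 read 9583 and 10037 on the Sham arrays and 10902 and 10843 on the TiO2-H arrays and differed by 0.15, with log2 ratios of 0.22 and 0.15 in the same direction from its other probe. Kcna4, the rapidly inactivating member, differed by -0.11 ± 0.078, with its TiO2-H male array almost level with the Sham male array, and Kcna3 and Kcna5 overlapped. Kcna7 read 1056 and 1070.1 on the Sham arrays and 1038 and 1018 on the TiO2-H arrays with its brightest probe, below Sham after scaling and above it without scaling, while its other probe gave log2 ratios of 0.45 and -0.52.

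The Kv4 genes carry the dendritic A-type current. Kcnd2, the main one of forebrain dendrites, read 5561 and 5845 on the Sham arrays and 6688 and 6621 on the TiO2-H arrays, a difference of 0.22 ± 0.044 (limma adjusted p = 0.257). Kcnd3 read 6145 and 6439 on the Sham arrays and 6640.3 and 6861 on the TiO2-H arrays, a difference of 0.10 ± 0.046, whereas Kcnd1 read 2434 and 2083 on the Sham arrays and 1921 and 1949.7 on the TiO2-H arrays, a difference of -0.22 ± 0.092. For Kcnd1 the Sham male array was the high one, and without scaling its TiO2-H arrays no longer lay below both Sham arrays. So 2 of 3 Kv4 genes lay above and 1 below.

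Kv3 channels allow fast spiking, in particular in parvalbumin interneurons. Kcnc1 read 1367 and 1471 on the Sham arrays and 1512 and 1514 on the TiO2-H arrays with its brightest probe, a difference of 0.093 ± 0.052. Kcnc2 differed by 0.17 ± 0.040, whereas Kcnc4 overlapped. The other probes of Kcnc1 gave log2 ratios of -0.10 and -0.06 for the one and 0.15 and -0.04 for the other, so the small excess of Kcnc1 was not shared by its probes.

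Kcnb2, a delayed rectifier of the Kv2 family, read 208 and 249 on the Sham arrays and 271 and 279.6 on the TiO2-H arrays, a difference of 0.27 ± 0.11. The Sham arrays of Kcnb2 differed from each other by more than the Sham female array did from the TiO2-H arrays.

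Kv7 channels carry the M-current, a slow brake on firing. Kcnq3 read 123 and 103 on the Sham arrays and 103 and 113 on the TiO2-H arrays, with log2 ratios of -0.26 and 0.14 in opposite directions, and Kcnq5 overlapped as well.

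The modifier subunits, which are silent alone and alter Kv2 channels, were mixed. Kcns1 read 213 and 187 on the Sham arrays and 174 and 173 on the TiO2-H arrays, a difference of -0.20 ± 0.079, and Kcns3 differed by -0.070, both lower than Sham after scaling only. Kcng2 read 645 and 587 on the Sham arrays and 711 and 696 on the TiO2-H arrays, a difference of 0.19 ± 0.063, and Kcnv1 differed by 0.076. Kcnf1, Kcng1 and Kcns2 overlapped.

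Among inward rectifiers, 4 of 10 lay above and 1 below (40% and 10%, against 30.2% and 26.6% of all genes). Kcnj11 encodes Kir6.2, the pore of the ATP-sensitive channel that couples metabolism to excitability, and read 225 and 229.8 on the Sham arrays and 194 and 178 on the TiO2-H arrays, a difference of -0.29 ± 0.059 (limma adjusted p = 0.257). Its second probe was detected on no array. Kcnj12, the strong rectifier Kir2.2, read 366 and 354 on the Sham arrays and 418 and 426 on the TiO2-H arrays, a difference of 0.23 ± 0.040 (limma adjusted p = 0.257). These were the 2 inward rectifiers with the widest gaps between exposures, in opposite directions.

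The remaining members above, Kcnj16, Kcnj5 and Kcnj9, differed by 0.092, 0.11 and 0.10 with standard errors of 0.056, 0.043 and 0.057. Kcnj10 encodes Kir4.1, which clears potassium through astrocytes. It read 2799.9 and 2752 on the Sham arrays and 2821 and 2789.7 on the TiO2-H arrays, a difference of 0.015 ± 0.035, and its 4 arrays lay within a few percent of each other. Kcnj3, Kcnj4 and Kcnj13 overlapped as well. Kcnj8, the Kir6.1 pore of pericytes and vascular muscle, read 83.6 and 55.1 on the Sham arrays and 73.1 and 69.8 on the TiO2-H arrays, and here the Sham arrays differed more than the exposures. Kcnj6, a G-protein-gated channel of dopamine neurons, was near background at 21.4 in the male and 25.9 in the female Sham pool and 29.7 and 28.7 in the TiO2-H pools of these labels. Kcnj14 read 42.3 and 32.3 on the Sham arrays and 35.6 and 45.1 on the TiO2-H arrays, and was detected on 3 arrays, not on the Sham female array. Its log2 ratios of -0.25 and 0.44 were opposite in sign, and the 0.44 is a bound against the lowest detected Sham female signal.

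Among two-pore channels, 1 of 11 lay above and 2 below (9.1% and 18.2%, against 30.2% and 26.6% of all genes). A mean difference above 0 was seen in 27.3% of them and in 52.2% of all genes. The other 8 of the 11 had a negative one, and the median of the class was -0.09. Unscaled, that median shifts upward by the scaling difference given above, so its sign depends on the scaling. Kcnk10 (TREK-2), a mechanically and lipid-gated leak channel, read 2751 and 2926 on the Sham arrays and 3451 and 3264 on the TiO2-H arrays, a difference of 0.24 ± 0.057 (limma adjusted p = 0.257). Kcnk2 (TREK-1), its close relative, read 209 and 224 on the Sham arrays and 216 and 243 on the TiO2-H arrays, and its exposures overlapped. Kcnk3 (TASK-1), an acid-sensitive leak channel, read 730.4 and 719 on the Sham arrays and 667 and 679.6 on the TiO2-H arrays, a difference of -0.11 ± 0.036, and Kcnk13 differed by -0.14 ± 0.081. Both lay below Sham after scaling only.

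Kcnk9 (TASK-3), maternally expressed from an imprinted locus in brain, read 69.7 and 98.6 on the Sham arrays and 80.1 and 69.1 on the TiO2-H arrays. Its log2 ratios were 0.20 on the arrays labelled male and -0.51 on those labelled female, with a scanner error of 0.305 and 0.277, and the Sham female array was the high one. Kcnk1 (TWIK-1) read 1434 and 1314 on the Sham arrays and 1338 and 1387 on the TiO2-H arrays and overlapped, as did Kcnk4, Kcnk6, Kcnk12, Kcnk15 and Kcnk16. For Kcnk4 the brightest probe gave log2 ratios of -0.04 and -0.13, whereas its other probe gave 0.14 and 0.21.

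In the calcium-activated group, 5 of 8 lay above and 1 below (62.5% and 12.5%, against 30.2% and 26.6% of all genes). The 5 include Kcnu1 and Kcnmb2, whose exposures lay only 0.00046 and 0.025 apart on the log2 scale. Kcnma1, the pore of the BK channel, read 2047 and 2339.6 on the Sham arrays and 2196 and 2193 on the TiO2-H arrays with its brightest probe. With that probe its exposures overlapped, with a difference of 0.0039 ± 0.081. The other, dimmer probes of Kcnma1 put both TiO2-H arrays above both Sham arrays. Their log2 ratios were 0.03 and 0.06 for the one and 0.10 and 0.34 for the other, so the overlap was not shared by the probes. Kcnmb4, its main neuronal beta subunit, read 13915 and 14114 on the Sham arrays and 13455 and 13629 on the TiO2-H arrays, a difference of -0.049 ± 0.035, with the TiO2-H arrays below Sham after scaling and above it without scaling. Kcnmb2, the inactivating beta subunit, read 288 and 271 on the Sham arrays and 293 and 329 on the TiO2-H arrays, and the excess lay mainly on the TiO2-H female array. A dimmer probe of Kcnmb2 read 47.2 and 35.8 on the Sham arrays and 57.3 and 69.0 on the TiO2-H arrays, past 1.5-fold on the arrays labelled female, where the brighter probe was not and where the dimmer probe's Sham female signal was not detected.

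SK channels set the afterhyperpolarization. Kcnn3 (SK3) read 147 and 168 on the Sham arrays and 201 and 184 on the TiO2-H arrays, a difference of 0.29 ± 0.094, and Kcnn2 (SK2) read 1072 and 1101 on the Sham arrays and 1148 and 1203 on the TiO2-H arrays, a difference of 0.11 ± 0.045. Both TiO2-H arrays lay above both Sham arrays for each of them. The Kcnn2 values are means of several spots, and its scanner error of 0.065 on a log2 ratio was lower than the 0.220 of Kcnn3. Kcnt1, the sodium-activated channel mutated in infantile epilepsy, read 669 and 716 on the Sham arrays and 641 and 695 on the TiO2-H arrays, with overlapping exposures, and Kcnu1, best known from sperm, differed by 0.015. Kcnn4, the intermediate-conductance channel of blood and microglia, stayed near background at 29.3 and 18.2 on the Sham arrays and 35.6 and 35.6 on the TiO2-H arrays.

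Among auxiliary subunits, 4 of 7 lay above and 2 below (57.1% and 28.6%, against 30.2% and 26.6% of all genes). Kcnab1, a Kv1 beta subunit, read 907 and 1018 on the Sham arrays and 1128 and 1109 on the TiO2-H arrays, a difference of 0.22 ± 0.073. Kcnab3 overlapped, and Kcne4 was near background at 19.2 and 20.3 on the Sham arrays and 15.1 and 29.2 on the TiO2-H arrays. The Kv4 partners split, with Kcnip3 and Kcnip4 higher by 0.13 and 0.082 in TiO2-H and Kcnip1, like Kcnip2, on the lower side with a difference of -0.080. Neither Kcnip1 nor Kcnip2 stayed below Sham on both arrays without scaling. Kcne2, which is expressed by choroid plexus epithelium, read 803 and 758 on the Sham arrays and 881 and 857 on the TiO2-H arrays, a difference of 0.16 ± 0.049. The summed signal of the 6 choroid plexus markers, Kcne2 included, was 76932 and 74816 on the Sham arrays and 73108 and 74362 on the TiO2-H arrays. Of these 6, Clic6, Otx2 and Kcne2 lay above Sham on both TiO2-H arrays and Ttr, whose signal made up most of the sum, lay below.

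Kcnh6, an ERG channel that the study's lists hold, was also read. Its brighter probe was detected on no array. Its other probe was detected on the Sham female array alone, at 86.8, against 11.8 on the Sham male array and 16.5 and 13.3 on the TiO2-H arrays labelled male and female. The ratio on the arrays labelled female was then at least 3.88-fold lower, and like that of Kcnip2 it rested on the Sham female array.

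Genes that work with potassium channels were described by the same counts. Of 25 listed partners 24 had a named probe and 21 were detected on all arrays. On either pair 0 of 21 were past the fold thresholds, where the shares of all genes were those given above. Both TiO2-H arrays lay above both Sham arrays for 11 (of all genes, 30.2% did) and below for 3 (26.6%). Examples of the higher ones were differences of 0.38 for Abcc9, the sulfonylurea receptor of Kir6 channels in vessels, and 0.34 for Lrrc55, a gamma subunit of BK. Abcc9 read 115 and 118 on the Sham arrays and 162 and 143 on the TiO2-H arrays, well apart. Ank3, which anchors Kv7 channels at the axon initial segment, differed by 0.27, and Cntnap2, which clusters Kv1 channels beside the node, by 0.16. Dlg4, the scaffold PSD-95, differed by -0.08 and Atp1b2, a sodium pump subunit, by -0.09, both below Sham after scaling and above it without scaling. The transcriptional repressor Rest overlapped.

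Markers of the cell types in the sample were read on the same arrays. Of all genes detected on 4 arrays, 30.2% lay above and 26.6% below. All 10 neuronal markers were detected, and 3 lay above and 1 below, with summed signals of 308510 and 310900 (Sham) and 305530 and 319370 (TiO2-H). All 8 markers of radial glia and astrocytes were detected, 2 above and 3 below. All 6 microglial markers lay above, with summed signals of 31265 and 33005 (Sham) and 35419 and 37905 (TiO2-H), and so did all 6 meningeal markers, at 18893 and 18640 (Sham) and 19919 and 20308 (TiO2-H). Itgam alone made up most of the microglial sum. Of 8 endothelial and pericyte markers 5 lay above and 1 below, and of 8 oligodendrocyte lineage markers 4 above. Of the erythroid markers 5 of 6 had a named probe, with summed signals of 52351 and 50284 (Sham) and 43109 and 43381 (TiO2-H), lower in TiO2-H, and 1 of them was detected on no array. Hba-a1 alone made up most of that sum. Of the 3 detected on all arrays 2 lay below, and Slc4a1 overlapped. The pituitary list summed to 698 and 721 (Sham) and 1349 and 665 (TiO2-H), high on the TiO2-H male array, where Gh gave 290.13 against 11.5 and 6.76 on the Sham arrays, and its markers Prl, Cga and Pou1f1 were detected on no array. Muscle markers summed to 1653 and 1641 (Sham) and 1642 and 1543 (TiO2-H). The part of these cell types in the channel values was not tested.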

How the data were processed

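RNA of 4 pools was measured on 4 one-color Agilent arrays. The authors deposited scanner files in which processed signal is an intensity, background-subtracted by Feature Extraction 10.10.1.1 and not scaled between arrays. Their value table held the same intensities. Probes were named by RefSeq accession through a gene table of GRCm38.p6, which held 94.3% of 22765 accessions. Here, log2 signals were centred on each array's 75th percentile after removal of outlier spots, replicate spots were averaged, and the brightest probe by mean log2 signal represented a gene. Ratios needed 1 of both arrays to be well above background. For a probe not detected on one of them, the lowest detected signal of that array took the place of its signal where that was lower, and the fold is a bound. The bound is not strict if the probe's own signal was kept.

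With 1 pool per group no test was possible within a sex. Both TiO2-H arrays were compared with both Sham arrays by limma 3.58.1 (R 4.3.3) with Benjamini-Hochberg adjustment and no sex term, so p-values measure the spread between these 4 pools only. Precision is limited by the number of arrays. Tables were made with numpy 2.4.6 and pandas 2.3.3 in Python 3.11.15. In simulated data with 200 of 14633 genes changed 3-fold, the fold rule recovered 100% on either pair and limma 100%. Those changes were larger than the mean difference of any member detected on all 4 arrays. Recovery of smaller differences was not simulated.

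Members, lists and tests were chosen with earlier results of these data known. The genes named were those past the fold thresholds, the 5 largest differences in each direction among members whose exposures did not overlap, well-known members of each class, 2 members in the study's lists and members whose probes disagree. Others were named after their values were seen. Alternatives were no scaling, quantile normalization, normexp with an offset of 50 on median signals, the deposited table, other filters and floors, the mean of detected probes, outlier spots kept, a 2-fold threshold, crossed sex labels, no auxiliary subunits, sex terms and each array left out in turn. CpG island arrays were not analysed here. Some members and list genes are not reported here by name.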

Additional observations from a re-analysis of the deposited data

Results flagged for a closer look

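Probes that did not stand for their gene also carried signals past 1.5-fold. Kcnt2's other probe had a log2 ratio of 1.42 on the arrays labelled male, with signals of 8.68 and 9.37 on the Sham arrays and 84.0 and 6.54 on the TiO2-H arrays, male label first, so it was detected on the TiO2-H male array alone and the ratio is a bound. The other probe of Kcng2 had a log2 ratio of 0.95 on the arrays labelled male, and its 4 signals in the same order were 41.3, 46.8, 80.0 and 49.2. For Kcnmb2 the other probe had a log2 ratio of 0.95 on the arrays labelled female, where its Sham female signal of 35.8 was not detected. Kcne3's other probe had a log2 ratio of 0.60 on the arrays labelled male and was detected on the TiO2-H male array alone, at 47.5, so that this ratio is also a bound. For Kcng2 and Kcnmb2 the brighter probe gave 0.14 and 0.28 in the same pair. Of these 4 probes, 3 were flagged for their ratio on the arrays labelled male, so their high TiO2-H male signals follow from the selection. Probes at or below 0.67-fold, such as the other probe of Kcnh6 on the arrays labelled female, were not flagged.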

How the results depend on the processing

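The number of members past the fold thresholds changed with the processing, and 4 of the 5 on the arrays labelled male had 1 array that was not well above background. The share of all genes past the thresholds was not computed under these alternatives. The fold counts therefore cannot show whether the members moved differently from all genes. On the arrays labelled male, 5 members (3 higher and 2 lower) became 3 with normexp, 1 when both arrays had to be well above background, 3 at 2-fold and 0.5-fold, and 3 with the Sham array of the other sex label. On the arrays labelled female, 1 member became 3 with no floor, 3 with the mean of a gene's detected probes, which takes a probe's undetected signal at its own value, 0 at 2-fold and 0.5-fold, 2 with the Sham array of the other sex label and 0 without the auxiliary subunits. For Sham female over Sham male, 4 became 2 when both arrays had to be well above background and 2 at the stricter thresholds, and for TiO2-H female over TiO2-H male 1 became 0 with normexp, 2 with no floor and 3 with the mean of detected probes. Without scaling 1 partner passed on the arrays labelled male, 42 members had both TiO2-H arrays above Sham and 2 below. No called log2 ratio of a named member reversed. Of 396 recomputed ratios of named members 283 moved by less than the spread between the Sham arrays (robust SD 0.087 over all genes) and 113 by more. The shift from leaving out the scaling, 0.10 or 0.13, by itself exceeds that spread. The limma count stayed at 0 members and 0 genes in the alternatives run, including each array left out in turn (0 to 0), with the lowest adjusted p of a member between 0.0967 without scaling and 0.415. Where an array was left out, the lone array of its exposure was assumed to vary like the others. No paired analysis was possible because the labels number no replicates, except through the sex label as a term, with which limma called 0 members (lowest adjusted p 0.390 as labelled and 0.415 with sex crossed). Depth on an array is limited to signal over background.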
